A study of Rattus norvegicus with 7 samples.

Results

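The interleukin-1, tumour necrosis factor and chemokine genes are the early inflammatory messengers of the lung, and 10 of them were followed here across 7 arrays of rat alveolar type 2 cells: Il1a, Il1b, Tnf, Il6, Ccl2, Ccl3, Ccl4, Cxcl1, Cxcl2 and Nfkbia. The members were taken as every probe set whose platform gene symbol was one of these names. This gave 16 probe sets for 9 of the 10 genes, out of 8740 probe sets tested and 4736 genes with a probe set of their own, and no probe set carried the symbol Cxcl1. The genes were chosen by their log2 values on these same arrays, where most of them were high together on control 4, so their pattern across arrays is given as a description with no test.

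The ethanol group was 3 male Sprague Dawley rats that drank a Lieber-DeCarli liquid diet with ethanol as 36% of calories for 6 weeks, and the control group was 4 male Sprague Dawley rats given the same kind of liquid diet for 6 weeks with ethanol replaced by an isocaloric substitute. Type 2 cells, the epithelial cells that make lung surfactant, were isolated by immuno-absorption, and their RNA was hybridised to 1 Affymetrix array per animal. The ages of the animals are not given in the sources used here. The arrays are called ethanol 2, 3 and 4 and control 1 to 4 after their titles. In those titles all control arrays carry lower array numbers than all ethanol arrays, so the diet and anything that follows the numbering cannot be told apart. Values are the deposited log2 expression values, in which 1 unit is a doubling, and they are compared between arrays for 1 probe set and never between probe sets.

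The arrays were on a common scale, with means between 4.759 and 4.761, and any pair of them correlated at 0.929 to 0.983 over all probe sets. Of 14 listed type 2 cell markers 9 were measured, and Sftpc, which encodes surfactant protein C, lay at 12.41 to 12.78 in the ethanol arrays and 12.76 to 12.84 in the control arrays. The summed linear level of the 9 markers was 12870 to 17980 in the ethanol arrays and 15520 to 18150 in the control arrays, lowest in ethanol 2. With 3 and 4 arrays, the precision is limited by the number of animals.

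Interleukin-1 alpha and beta and tumour necrosis factor are released by macrophages and other cells after injury or microbial products, and they act through their receptors to free the transcription factor NF-kB from its inhibitors. NF-kB then drives many genes, among them the cytokines themselves, interleukin-6, the chemokines that call in monocytes and neutrophils, and Nfkbia, which encodes the inhibitor IkB-alpha and so closes the loop. In the alveolus, macrophages are the best known source of these messengers, and type 2 cells also respond to them and secrete chemokines.

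Upstream sequences are shown for 3 genes that shared the array pattern described below (Il1b, Tnf and Cxcl2) and for the 2 that did not by their brightest probe sets (Il6 and Nfkbia), since NF-kB sites are the feature these genes are best known to share. Each is the 250 bases before the start that the RefSeq promoter table gives for the gene in the GRCr8 assembly of the rat genome, at chr3:137036582-137036831 on the minus strand for Il1b, chr20:3626435-3626684 on the plus strand for Tnf, chr14:17467256-17467505 on the minus strand for Cxcl2, chr4:5894576-5894825 on the minus strand for Il6 and chr6:78597073-78597322 on the minus strand for Nfkbia. The Nfkbia window overlaps the gene's outermost RefSeq bounds by 235 bases, while the other 4 printed windows lie wholly outside theirs. Capitals mark every match, on either strand, to a loose form of the NF-kB site (GGG, any 5 bases, CC), with overlapping matches joined.
Il1b promoter: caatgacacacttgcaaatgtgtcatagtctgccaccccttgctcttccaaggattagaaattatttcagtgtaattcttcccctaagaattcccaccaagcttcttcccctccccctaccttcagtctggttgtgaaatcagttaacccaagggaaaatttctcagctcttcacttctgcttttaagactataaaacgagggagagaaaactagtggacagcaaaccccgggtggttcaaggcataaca
Tnf promoter: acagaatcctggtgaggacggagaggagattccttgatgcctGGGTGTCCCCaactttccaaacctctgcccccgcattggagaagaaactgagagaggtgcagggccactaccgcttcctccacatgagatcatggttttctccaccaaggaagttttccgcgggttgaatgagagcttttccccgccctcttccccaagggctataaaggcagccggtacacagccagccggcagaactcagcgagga
Cxcl2 promoter: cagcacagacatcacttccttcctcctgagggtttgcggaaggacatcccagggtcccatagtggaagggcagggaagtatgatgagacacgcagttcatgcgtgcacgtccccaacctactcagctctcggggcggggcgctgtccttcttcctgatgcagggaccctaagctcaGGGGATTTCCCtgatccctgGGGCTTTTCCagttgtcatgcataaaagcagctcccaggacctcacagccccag
Il6 promoter: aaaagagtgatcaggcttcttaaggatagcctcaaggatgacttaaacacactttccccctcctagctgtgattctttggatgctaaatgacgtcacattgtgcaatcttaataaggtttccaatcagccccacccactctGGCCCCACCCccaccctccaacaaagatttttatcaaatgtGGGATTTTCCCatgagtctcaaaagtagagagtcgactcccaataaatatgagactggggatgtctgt
Nfkbia promoter: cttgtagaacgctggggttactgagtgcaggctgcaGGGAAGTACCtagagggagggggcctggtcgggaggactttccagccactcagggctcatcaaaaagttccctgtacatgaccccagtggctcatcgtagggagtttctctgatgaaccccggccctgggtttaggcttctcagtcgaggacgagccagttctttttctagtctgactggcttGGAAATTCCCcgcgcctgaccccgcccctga

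The loose form occurred in 42.3% of the 33469 windows of this length in the RefSeq table, and in 57.8% of the 4205 windows of genes on the array. A narrower form (GGG, any 2 bases, TTTCC), whose matches are also matches to the loose form, occurred in 1.30% of all the windows. Cxcl2 held the narrower form at bases -74 to -65 and -54 to -45 before the start, Il6 held it at -68 to -59, and Nfkbia held it on the minus strand at -31 to -22. Tnf held only the loose form, at -208 to -199 on both strands, and Il1a and Il1b held neither form in this window, of which 219 bases lie inside the gene bounds for Il1a. Such a match is a description of the letters and says nothing of binding. Ccl2, Ccl3 and Ccl4 were not among the promoters matched. Il1a and Il1b lie on chromosome 3 with 0 protein-coding genes between them, and Ccl3 and Ccl4 lie side by side on chromosome 10.

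The interleukin-1 genes were high on 3 arrays and low on 4, across both diets. Il1a, the form of interleukin-1 that damaged cells release as an alarm, read 7.97, 6.15 and 7.43 on ethanol 2, 3 and 4, against 6.40, 6.50, 6.62 and 8.66 on control 1 to 4 (probe set D00403_at). Control 4 was the highest array, ethanol 2 and 4 came next, and ethanol 3 was the lowest of all, so the groups overlapped. Control 4 lay 4.45-fold above the other 3 controls, taken as the mean of their log2 values. The group means were 7.18 ± 0.93 (SD, n = 3) in the ethanol arrays and 7.05 ± 1.08 (SD, n = 4) in the controls, a difference of 0.13 with a 95% interval of -1.17 to 1.43 (limma, adjusted p = 0.984). The other probe sets of the gene, D00403_g_at and E05489cds_s_at, put control 4 highest and ethanol 2 second as well, with differences of 0.18 and 0.22.

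Il1b, the secreted form that needs cutting by caspase-1, read 6.86, 4.99 and 6.69 on ethanol 2, 3 and 4, against 5.38, 5.07, 5.18 and 8.08 on control 1 to 4 (M98820_at). Again control 4, ethanol 2 and ethanol 4 stood above the other 4 arrays, and ethanol 3 was the lowest. Control 4 was 7.31-fold above the mean of the other controls, and its gap to the next control ranked first among all 8740 probe sets. The means were 6.18 ± 1.03 (SD, n = 3) in the ethanol arrays and 5.93 ± 1.44 (SD, n = 4) in the controls, a difference of 0.25 with a 95% interval of -1.38 to 1.89 (limma, adjusted p = 0.979). The other Il1b probe sets, M98820_g_at and E01884cds_s_at, differed by 0.20 and 0.04 and had the same 3 arrays on top.

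Tnf, the tumour necrosis factor gene, read 7.09, 5.14 and 6.48 on ethanol 2, 3 and 4, against 5.22, 4.93, 4.82 and 7.78 on control 1 to 4 (E02468cds_s_at). The 3 highest arrays were those of interleukin-1, with control 4 at 6.93-fold the mean of the other controls, and ethanol 3 lay within the range of the low controls. The ethanol arrays averaged 6.24 ± 1.00 (SD, n = 3) and the controls 5.69 ± 1.41 (SD, n = 4), a difference of 0.55 with a 95% interval of -1.04 to 2.14 (limma, adjusted p = 0.971).

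The CC chemokines, which attract monocytes and other leukocytes, followed the same arrays. Ccl3, encoding macrophage inflammatory protein 1 alpha, read 7.21, 5.41 and 7.15 on ethanol 2, 3 and 4, against 5.98, 5.26, 5.57 and 8.28 on control 1 to 4, with a difference of 0.32 (SE 0.70). Its neighbour Ccl4, encoding macrophage inflammatory protein 1 beta, read 7.27, 5.33 and 6.60 in the ethanol arrays, against 5.78, 5.88, 6.15 and 8.17 in the controls, with a difference of -0.10 (SE 0.61). Control 4 was 6.40-fold above the mean of the other controls for Ccl3 and 4.71-fold for Ccl4. Both are close relatives in sequence, and whether their probes read each other's transcripts was not tested.

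Ccl2, the main monocyte attractant, read 6.12, 4.54 and 5.47 on ethanol 2, 3 and 4, against 5.47, 4.86, 5.13 and 7.38 on control 1 to 4 (X17053cds_s_at). Ethanol 4 was level with control 1 on this probe set, so the step between the 3 high and the 4 low arrays was lost there. The difference was -0.33 (SE 0.57). The gene's other probe set, X17053mRNA_s_at, differed by -0.40 and kept the step, with ethanol 4 at 5.53 and control 1 at 5.35. Both Ccl2 probe sets and that of Ccl4 were the 3 member probe sets that were lower in the ethanol arrays.

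Cxcl2, a neutrophil attractant of the CXC family, read 6.38, 5.91 and 6.90 on ethanol 2, 3 and 4, against 6.30, 5.15, 5.26 and 7.79 on control 1 to 4. Control 4 was again highest, at 4.67-fold the mean of the other controls, but ethanol 4 exceeded ethanol 2 and control 1 was close to ethanol 2. The difference was 0.27 (SE 0.57). Its relative Cxcl3, which is no member, read 7.13, 7.58 and 8.34 in the ethanol arrays, against 7.36, 6.92, 7.07 and 8.22 in the controls, so ethanol 4 was above control 4 there. Whether the Cxcl2 probes also read Cxcl1 or Cxcl3 was not tested.

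Nfkbia, and Il6 by 1 of its probe sets, stood outside this pattern. Il6, whose product drives the acute-phase response, read 5.05, 5.57 and 5.74 on ethanol 2, 3 and 4, against 5.05, 5.25, 4.97 and 4.97 on control 1 to 4 (M26745cds_s_at). Control 4 was among the lowest arrays, ethanol 3 and 4 were the highest, and ethanol 2 was level with control 1. The ethanol arrays averaged 5.45 ± 0.36 (SD, n = 3) and the controls 5.06 ± 0.13 (SD, n = 4), a difference of 0.40 with a 95% interval of 0.01 to 0.78 (limma, unadjusted p = 0.0463, adjusted p = 0.967). The second Il6 probe set, M26744_at, read 4.75, 5.31 and 5.83 in the ethanol arrays, against 4.41, 4.11, 4.14 and 5.35 in the controls. It put ethanol 4 first and control 4 second, so the probe sets disagreed on control 4, and its difference was 0.79 (limma, unadjusted p = 0.0383, adjusted p = 0.967).

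Nfkbia, whose product holds NF-kB in the cytoplasm, read 8.78, 9.79 and 9.58 on ethanol 2, 3 and 4, against 8.58, 8.32, 8.65 and 9.31 on control 1 to 4 (X63594cds_at). Ethanol 3, the lowest array for Il1a, Il1b, Ccl2 and Ccl4 by their brightest probe sets, was the highest for Nfkbia. Ethanol 4 and control 4 came next. Control 4 was thus the highest control here too, at 1.73-fold the mean of the other controls. On E05489cds_s_at of Il1a control 1 was the lowest array instead, and on M98820_g_at of Il1b control 3 was. The ethanol arrays averaged 9.38 ± 0.53 (SD, n = 3) and the controls 8.71 ± 0.42 (SD, n = 4), a gap of 0.67 with a 95% interval of 0.04 to 1.30 (limma, unadjusted p = 0.0391, adjusted p = 0.967). The groups overlapped through ethanol 2 and control 4. The other probe set, X63594cds_g_at, differed by 0.75 (limma, unadjusted p = 0.107).

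**Figure D1:**
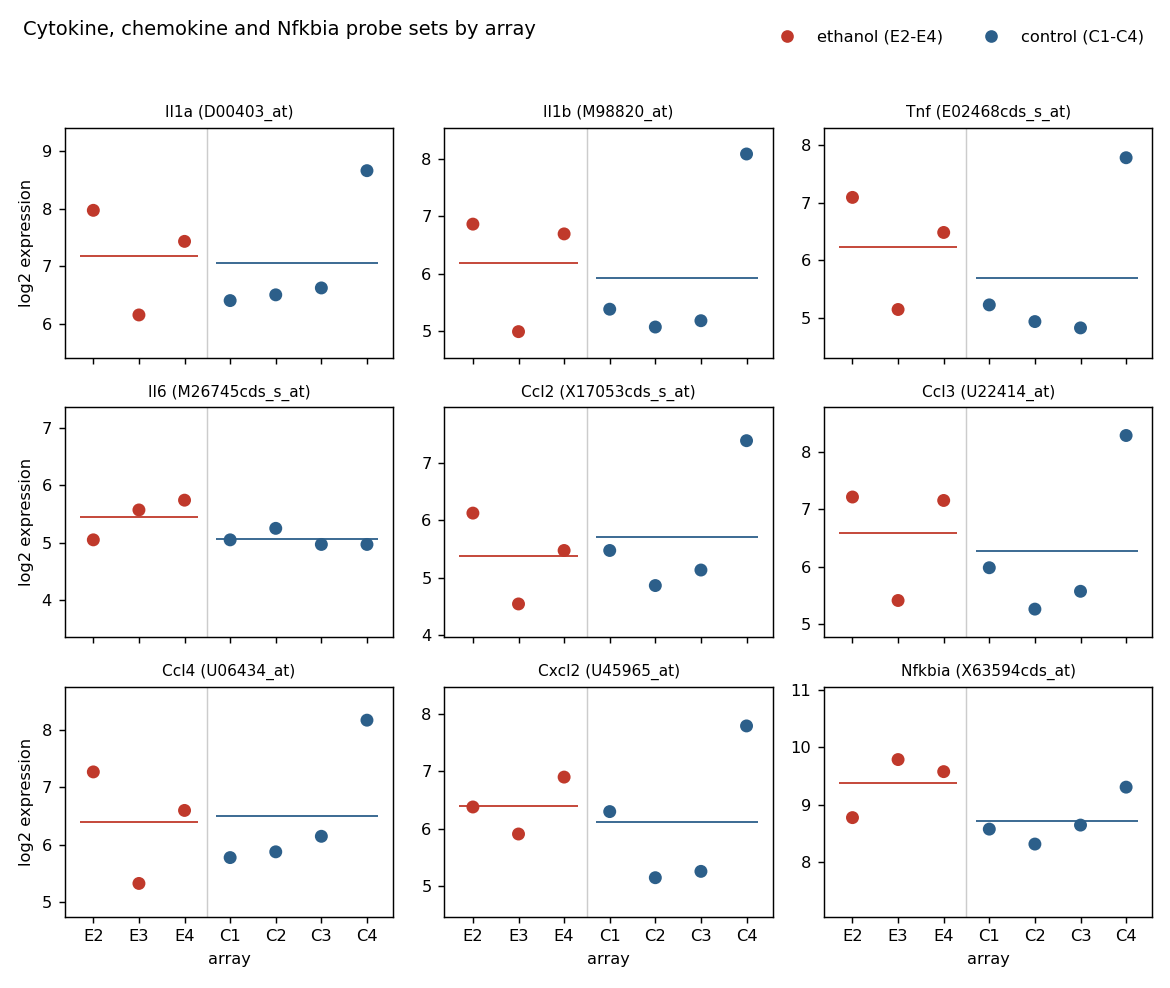
Log2 expression of the 9 measured genes on each array, 1 panel per gene with its probe set of highest mean, ethanol arrays in red left of control arrays in blue and a line at each group mean. Control 4 is the highest array for Il1a, Il1b, Tnf, Ccl2, Ccl3, Ccl4 and Cxcl2, ethanol 3 is the highest for Nfkbia, and no gene separates the diets.

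The difference between the diets was smaller than the within-group SD for 12 of the 16 member probe sets, and exceeded it for both Il6 and both Nfkbia probe sets. Of the 16 member probe sets 13 were higher and 3 lower in the ethanol arrays, with a median difference of 0.24, beside 4237 higher and 4503 lower and a median of -0.01 over all 8740 probe sets. At adjusted p under 0.05 limma called 0 of the 16, beside 0.149% of all probe sets (13 calls). At an unadjusted p under 0.05 the count was 3 of 16, all higher with ethanol (both Il6 probe sets and X63594cds_at of Nfkbia), beside 2.13% of all probe sets in that direction. Nothing is read from these counts, since the members were chosen with their values known. The ethanol arrays lay wholly outside the control range for 0 of 16 member probe sets, beside 5.24% of all probe sets. The standard errors of the member differences ran from 0.17 to 0.73 with a median of 0.58, against a median of 0.148 over all probe sets, and the widest, that of Il1b (M98820_at), was also the widest of all 8740.

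Single arrays decided the size and often the sign of the difference. Without control 4 all 16 member probe sets were higher in the ethanol arrays, by 0.23 to 1.24 with a median of 0.82. The Tnf difference was then 1.24, Ccl3 0.99, Il1b 0.97 (M98820_at) and Nfkbia 0.87 (X63594cds_at). Even so limma called 0 of 16 (adjusted p 0.27 to 0.872), beside 0.16% of all probe sets, and 9 of 16 had an unadjusted p under 0.05, beside 3.76% of all probe sets in the same direction. Most members were chosen as high on control 4, so leaving it out raises their differences by that choice. Nothing is read from these counts. Leaving out ethanol 3 also made all 16 differences positive, with a median of 0.56. Leaving out ethanol 2 turned the interleukin-1 differences below 0, and 7 of 16 were then higher. Without control 2, 7 of 16 were higher. Tnf, Il6 and Nfkbia kept a positive difference whichever array was left out, at 0.12 to 1.24 for Tnf and 0.47 to 0.97 for Nfkbia (X63594cds_at). No member passed at adjusted p under 0.05 in any of these fits.

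**Figure D2:**
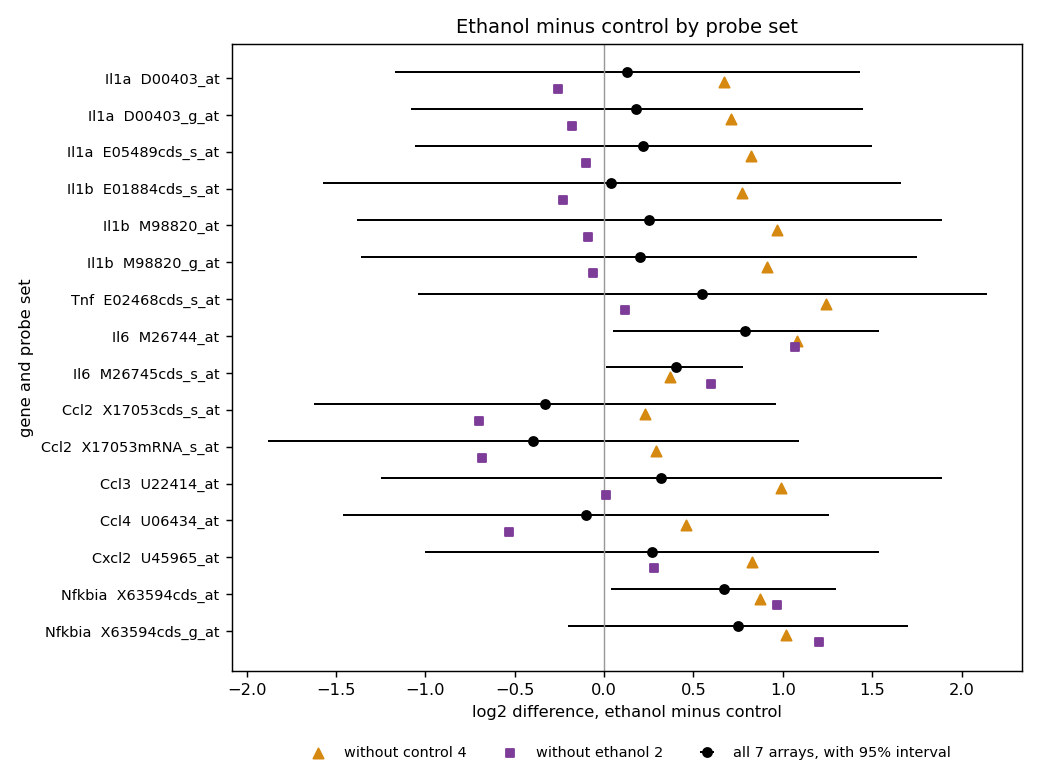
Log2 difference, ethanol minus control, of each of the 16 member probe sets, with all 7 arrays (black, bar showing the 95% interval), without control 4 (orange triangles) and without ethanol 2 (purple squares). Without control 4 every point lies above 0, at 0.23 to 1.24, while without ethanol 2 the Il1a and Il1b points lie below 0.

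Of the 9 genes 7 varied together across the arrays. Among Il1a, Il1b, Tnf, Ccl2, Ccl3, Ccl4 and Cxcl2, the 21 pairwise Pearson correlations over the 7 arrays ran from 0.76 to 0.99 with a median of 0.93, and the median Spearman correlation was 0.86. The arrays fall into 3 high and 4 low ones, the genes share each array's RNA and hybridisation, and the genes were picked for this pattern, so the correlations are descriptions with n = 7. Without control 4 the median was 0.86 and the lowest pair, Ccl4 with Cxcl2, was 0.44. After subtraction of each diet's mean the median was 0.97. Il6 by M26745cds_s_at correlated with the 7 at -0.48 to 0.02 and with Nfkbia at 0.65, and by its other probe set, M26744_at, with the 7 at 0.31 to 0.74 and with Nfkbia at 0.91. Whether Il6 lay apart from the 7 thus depended on the probe set. Nfkbia correlated with the 7 at 0.08 to 0.53. Different probe sets of 1 gene correlated at 0.64 to 1.00, the lowest being the pair for Il6.

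**Figure D3:**
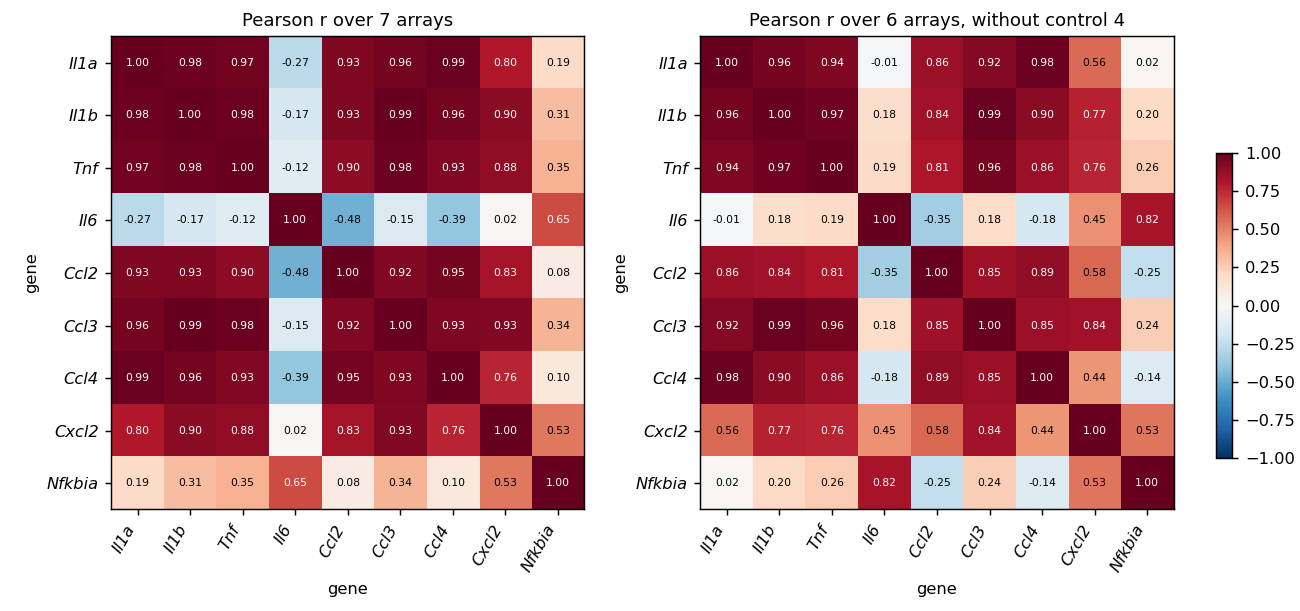
Pearson correlation between the 9 genes over the 7 arrays (left) and over 6 arrays without control 4 (right), 1 probe set per gene. A dense block of Il1a, Il1b, Tnf, Ccl2, Ccl3, Ccl4 and Cxcl2 has a median of 0.93, or 0.86 without control 4, and Nfkbia and the Il6 probe set shown, M26745cds_s_at, lie outside it.

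The members were chosen as high on control 4, so the counts that follow restate that choice and are descriptions only. Control 4 exceeded every other control by at least 1 log2 unit for 12 of 16 member probe sets (7 of 9 genes), beside 45 of 8740 probe sets, or 0.515%. It exceeded them by at least 2 units for 10 member probe sets, out of 11 such probe sets in all. Control 4, ethanol 2 and ethanol 4 were all above the other 4 arrays for 11 member probe sets and for 357 probe sets in all. The within-group SD was in the top 1% of the array for 13 of 16, where the median probe set had 0.193. The mean of the 9 genes, each centred on its own mean, was 0.53, -0.57 and 0.45 on ethanol 2, 3 and 4, against -0.42, -0.75, -0.63 and 1.39 on control 1 to 4. Control 4 had the same array mean as the others (4.76). All 7 means were alike, so the mean cannot show whether control 4 differed as a whole. The SD over all probe sets was 1.44 on control 4, against 1.29 (control 2) to 1.46 (ethanol 4) over the 7 arrays. The weight of control 4 in limma's array weights was 0.797, between those of control 2 at 0.392 and ethanol 3 at 2.93.

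The genes whose arrays most resembled that mean were found among 468 probe sets of 391 genes with a mean of at least 5 and a range of at least 1. The 12 most alike were Ppt1, S100a4, Cd14, Olr1, Lgals3, Lipa, Lta4h, Vim, Cd9, Psap, Xrcc5 and Ctsd, with r from 0.99 (Ppt1) to 0.91 (Ctsd) over the 7 arrays. Several encode lysosomal proteins: Ppt1 a thioesterase, Lipa the acid lipase, Psap prosaposin and Ctsd cathepsin D. Ppt1 read 5.71, 4.83 and 5.57 in the ethanol arrays, against 4.75, 4.54, 4.47 and 6.27 in the controls. Ctsd read 8.54, 6.84 and 7.46 in the ethanol arrays, against 6.82, 5.86, 6.19 and 8.41 in the controls, so ethanol 2 was above control 4.

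Others in that group are known from phagocytes. Olr1, a scavenger receptor for oxidised lipoprotein, read 6.26, 5.49 and 5.79 in the ethanol arrays, against 5.16, 4.71, 4.65 and 6.92 in the controls. Lgals3, encoding galectin-3, read 8.15, 6.98 and 7.73 in the ethanol arrays, against 7.55, 6.53, 6.67 and 8.63 in the controls. Cd14, a co-receptor for bacterial lipopolysaccharide, read 5.56, 5.24 and 5.68 in the ethanol arrays, against 5.28, 4.94, 5.12 and 5.95 in the controls (AF087943_s_at). Control 4 was highest for all 3, and the range of Cd14 was narrow. Other probe sets of the same genes gave r of 0.93 for Cd14, 0.85 and 0.71 for Olr1, 0.57 and 0.74 for Lipa and 0.99 for Lta4h.

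**Figure D4:**
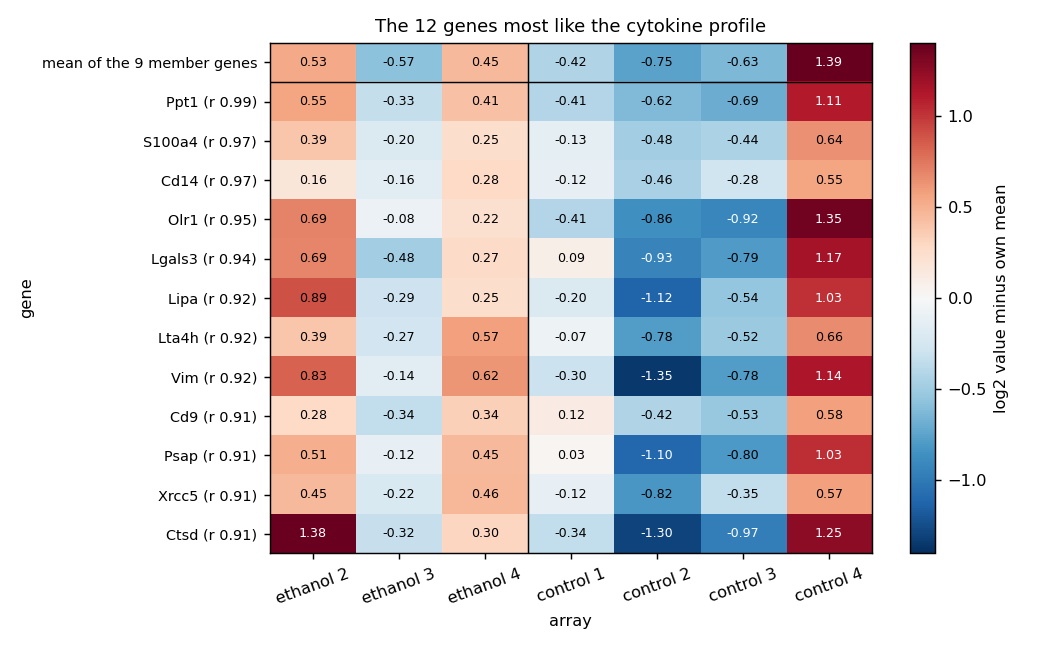
Log2 value minus its own mean over the 7 arrays for the mean of the 9 member genes (top row) and the 12 genes with the highest Pearson r to it, ethanol arrays left of control arrays. Control 4 is positive in every row and control 2 and 3 are negative in every row, and the member mean reaches 1.39 on control 4.

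Markers of other cells were set beside this pattern, because in cells isolated in bulk fewer cells of a type and less RNA per cell cannot be told apart. Of 28 listed macrophage and monocyte markers 11 were measured, and none was called between the diets. Their summed linear level was 1620 to 2192 in the ethanol arrays and 1287 to 2139 in the controls, with control 4 the highest control. Most of that sum was Cd74, and in a sum added after the values were seen the other 10 markers came to 708.6, 503.8 and 574.8 on ethanol 2, 3 and 4, against 496.2, 502.1, 480.5 and 660.8 on control 1 to 4. Without Cd74 the arrays on top were thus ethanol 2, control 4 and ethanol 4, the same 3 as for the members. Ctss, encoding cathepsin S, read 6.77, 5.96 and 6.44 in the ethanol arrays, against 5.73, 5.57, 5.06 and 6.68 in the controls. Ctss, Cyba and Olr1 correlated with the member mean at 0.86, 0.83 and 0.95. They were the only 3 of the 11 markers with control 4, ethanol 2 and ethanol 4 above the other 4 arrays. The order of the sum without Cd74 thus need not hold for the other markers. Itgam and Cd74 were at 0.72 and 0.63. C1qb and C1qc were at -0.58 and -0.59, and Mmp12 and Fcgr2b at -0.37 and -0.11. Csf1r, the receptor that macrophages depend on, was at 0.09, and the median r of the 11 was 0.09. Aif1, named after its values were seen, was at 0.02 by its brightest probe set and at 0.97 and 0.88 by U17919_s_at and U10894_s_at, so its probe sets disagreed.

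Of 10 listed pan-leukocyte markers 6 were measured, with a summed level of 128.1 to 158.8 in the ethanol arrays and 131.6 to 168.5 in the controls, and control 4, ethanol 2 and ethanol 4 were the highest arrays. The median r of the 6 with the member mean was 0.57. Cd53, a leukocyte tetraspanin with the highest r in that list, read 4.85, 4.21 and 4.68 in the ethanol arrays, against 4.37, 4.51, 4.25 and 5.25 in the controls, an r of 0.94. Coro1a, Cd48 and Vav1 were at 0.74, 0.58 and 0.57, and Cd52 was at -0.18. Ptprc was at 0.15 by its brightest probe set and at 0.91 and 0.72 by M10072mRNA_s_at and K03039mRNA_s_at, so its probe sets disagreed. Of 17 neutrophil markers 6 were measured, with sums of 76.6 to 82.6 in the ethanol arrays and 73.1 to 83.9 in the controls, where control 4 was the lowest. No marker reads as absent on a log2 scale, and no detection calls were used. The part of leukocytes in the pattern was not tested.

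**Figure D5:**
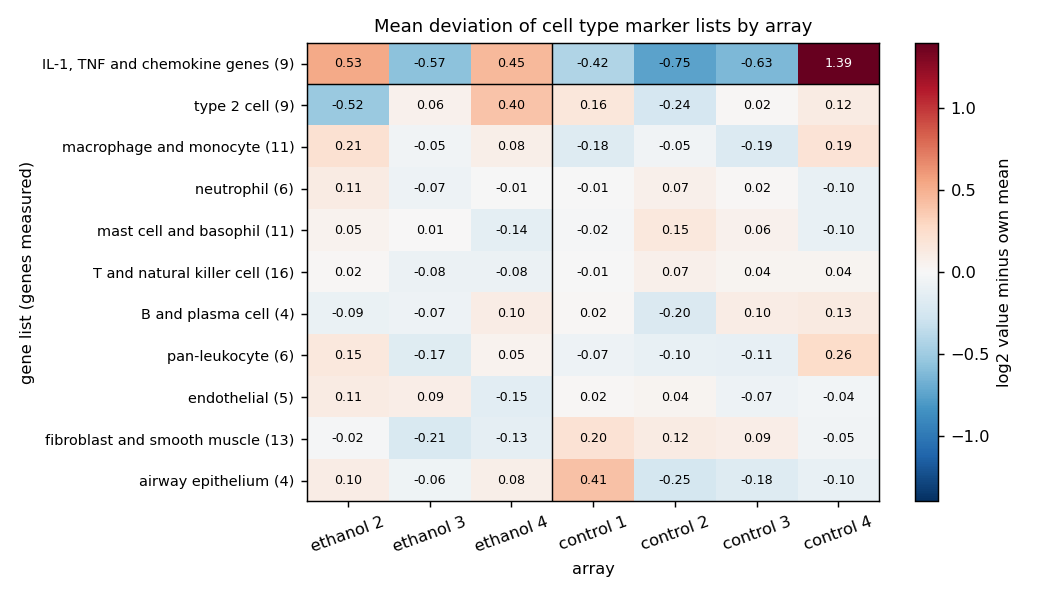
Mean log2 deviation, from each gene's own mean over the 7 arrays, of the 9 member genes (top row) and of 10 cell type marker lists, with the number of genes measured in brackets and ethanol arrays left of control arrays. The member mean reaches 1.39 on control 4, where the macrophage and monocyte list is at 0.19 and the pan-leukocyte list at 0.26.

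Receptors, antagonists and relatives of interleukin-1 and tumour necrosis factor had 17 of 22 listed genes measured, of which 11 were higher and 6 lower in the ethanol arrays, with a median difference of 0.08 and 0 called by limma. Il18, a cytokine of the interleukin-1 family, came closest to the members (r = 0.91). It read 5.60, 4.49 and 5.57 in the ethanol arrays, against 3.97, 3.89, 4.33 and 5.68 in the controls, a difference of 0.75 (limma, adjusted p = 0.967), and its other probe set had the same 3 arrays on top. Il1rn, the interleukin-1 receptor antagonist, read 5.0, 4.83 and 4.67 in the ethanol arrays, against 4.85, 4.86, 5.02 and 5.42 in the controls, so control 4 was high here too. Il33, another alarm cytokine of the family, differed by 0.31 (limma, unadjusted p = 0.0412, adjusted p = 0.967). The signalling receptors Il1r1, Tnfrsf1a and Tnfrsf1b, named after their values were seen, differed by 0.03, 0.01 and -0.03 and showed no such array pattern, with r of 0.27, 0.13 and 0.05.

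Of 22 other chemokines 11 were measured, with 10 higher and 1 lower, a median difference of 0.19 and 0 called. The 1 that was lower was Cxcl6, a neutrophil attractant, which read 6.64, 6.67 and 5.99 in the ethanol arrays, against 7.12, 6.90, 6.85 and 7.08 in the controls, a difference of -0.56 (limma, unadjusted p = 0.0118, adjusted p = 0.967). All ethanol arrays were below all controls for this gene. Ccl20 and Mif had differences of 0.37 and 0.31 (limma, unadjusted p = 0.0442 and 0.0365, adjusted p = 0.967 for both). Cxcl10, an interferon-induced chemokine, differed by 0.09 and had r = 0.91 with the member mean. Of 15 chemokine receptors 9 were measured, with 6 higher, 3 lower and 0 called. Ccr1, the receptor that binds the Ccl3 product, read 4.66, 4.39 and 4.56 in the ethanol arrays, against 4.44, 4.49, 4.39 and 5.41 in the controls, so control 4 stood alone.

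The signalling lists were thinly covered. The NF-kB subunits, kinases and inhibitors had 3 of 19 genes measured, 2 higher and 1 lower with a median of 0.02. Nfkb1, the gene for the p50 subunit, differed by 0.05. Traf2, an adaptor of the tumour necrosis factor receptors, differed by -0.15 and had an r of -0.89 with the member mean. Its values were low and its range narrow, from 4.07 (ethanol 4) to 4.56 (control 2), below the limits set for the likeness ranking. Toll-like receptor and MyD88 genes had 5 of 12 measured, 3 higher and 2 lower with a median of 0.07, and Tlr4, the lipopolysaccharide receptor, read 3.25, 3.13 and 3.19 in the ethanol arrays, against 3.61, 4.43, 3.51 and 3.05 in the controls. The IL-6 family and its receptors had 9 of 12 measured, 6 higher and 3 lower with a median of 0.00. All 3 lists had 0 genes called.

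Of 30 other NF-kB target genes 22 were measured, with 12 higher, 10 lower, a median of 0.01 and 0 called. Control 4 was the highest array for 5 of the 22. Hmox1, the haem oxygenase that answers oxidative stress, shared this control 4 peak. It read 8.80, 8.12 and 8.84 in the ethanol arrays, against 8.88, 7.82, 8.29 and 9.60 in the controls. Gch1 shared it by its brightest probe set, at 5.27, 5.72 and 6.21 in the ethanol arrays, against 5.28, 5.44, 5.52 and 6.58 in the controls. Its probe set E03424cds_s_at also put control 4 highest, while rc_AA943102_s_at and rc_AI043643_at did not. Irf1 and Zfp36 instead shared their 3 highest arrays, ethanol 3, ethanol 4 and control 4, with Nfkbia. Irf1, an interferon regulatory factor, read 6.53, 8.14 and 7.86 in the ethanol arrays, against 6.74, 5.82, 6.53 and 7.27 in the controls, with a difference of 0.92 (limma, unadjusted p = 0.0505) and an r of 0.97 with Nfkbia over the 7 arrays. Zfp36, whose product tristetraprolin binds cytokine messages and speeds their decay, read 8.61, 9.44 and 8.95 in the ethanol arrays, against 8.47, 8.02, 8.36 and 8.81 in the controls, with a difference of 0.58 (limma, unadjusted p = 0.0284, adjusted p = 0.967) and an r of 0.96. Ethanol 3 was the highest array for both by these probe sets, as it was for Nfkbia. Their other probe sets differed by 0.43 (Irf1, M34253_at) and 0.42 (Zfp36, rc_AA800613_at). On the former control 1 was level with control 4, at 6.18 and 6.17, and on the latter ethanol 4 was the highest array. Across the 22 measured genes of this list, by their brightest probe sets, r with Nfkbia ran from -0.74 (Nos2) to 0.97 (Irf1).

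The immediate-early genes, which answer many stimuli within minutes, had 23 of 27 measured, with 17 higher, 6 lower, a median of 0.14 and 0 called. Egr1 read 9.67, 10.77 and 10.77 in the ethanol arrays, against 10.18, 9.05, 8.99 and 9.83 in the controls. Nr4a1 and Jund differed by 0.59 and 1.72 (limma, unadjusted p = 0.0282 and 0.0272, adjusted p = 0.967 for both). Jund read 7.97, 8.39 and 7.05 in the ethanol arrays, against 7.21, 4.68, 5.09 and 7.38 in the controls, so the groups overlapped. Egr1 and Nr4a1 had r of 0.22 and 0.38 with the member mean, and of 0.82 and 0.85 with Nfkbia. Such an r with Nfkbia was not particular to the NF-kB target and immediate-early lists. It was 0.93 for Sftpa1, 0.81 for Jak1 and 0.80 for Cd74, and within the immediate-early list it was -0.35 for Fosl1. Fosl1, the gene for the AP-1 subunit Fra-1, was the strongest of the list in the other direction, reading 5.76, 6.68 and 6.36 in the ethanol arrays, against 7.51, 7.24, 7.54 and 7.41 in the controls. All ethanol arrays were below all controls, with a difference of -1.16 (limma, unadjusted p = 0.000247, adjusted p = 0.135).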

How the data were processed

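Total RNA of type 2 cells from 3 ethanol-fed and 4 control rats was measured on 1 Affymetrix rat array each. The deposited table holds log2 values for 8799 probe sets. The log2 scale was read from the values, which run from 1.65 to 12.84, and no source used here states the authors' summarisation or normalization. If that summarisation shrank dim probe sets, their differences here are too small. The 59 array controls were left out. The platform table gave 1 gene symbol to 7006 of the other 8740, several to 308 and none to 1426. By Entrez identifier, 6985 matched RefSeq (GRCr8) and 0 symbols changed. In counts over genes, each gene was represented by its brightest probe set. Promoters are RefSeq's.

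The diets were compared with limma 3.58.1 in R 4.3.3 (lmFit, eBayes, two-sided, diet as the only term), with Benjamini-Hochberg adjustment over 8740 probe sets and a call at adjusted p under 0.05. Tests were run on simulated data first. Per the design text the arrays are separate animals, so each p-value sets the diet difference against the spread between animals within a diet. With 1 array per animal, that spread also holds differences between cell isolations and hybridisations. The members, the 8 pathway lists and the 10 cell type lists were chosen with earlier results of these data known. Named genes were all members, the 12 most and 5 least like their mean profile, the 10 with the widest control 4 gap and up to 5 genes per list by p and by likeness. Alternatives were quantile normalization, median centring, filters at a mean of 4 and 6, a trended robust prior, array weights, a replicate block, 1 value per gene and each array left out.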

Additional observations from a re-analysis of the deposited data

Results flagged for a closer look

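Among the 4 controls, 1 array stood apart from the other 3, by Dixon's gap-to-range ratio at its 95% critical value, for 12 of the 72 probe sets of named genes examined, 7 of 16 member probe sets and 5 of 56 others. Chance gives this in about 1 in 20 groups, and 5.20% of all probe sets had a control apart in this way, with control 4 on the high side in 0.675%. The members were chosen for that height, and some of the others were named for a wide control 4 gap or a profile like that of the members. Both counts are thus listed as descriptions. For Il1a control 4 read 8.66 on D00403_at (other controls 6.40 to 6.62), 6.94 on D00403_g_at (4.81 to 4.84) and 5.99 on E05489cds_s_at (3.52 to 3.68). For Il1b it read 8.08 on M98820_at (5.07 to 5.38) and 7.63 on M98820_g_at (4.64 to 5.0). For Tnf it read 7.78 (4.82 to 5.22), and for Ccl4 8.17 (5.78 to 6.15). Ccl2, Ccl3 and Cxcl2 did not meet the critical value.

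Outside the members, control 4 read 6.27 for Ppt1 (other controls 4.47 to 4.75), 5.41 for Ccr1 (4.39 to 4.49), 4.57 for Psma2, a proteasome subunit gene (2.99 to 3.25), and 5.38 for Lpl, the gene for lipoprotein lipase (3.95 to 4.13). Of these genes, Ppt1, Psma2 and Lpl were among those named for a wide control 4 gap, so their height restates that choice. Mif was set apart by control 2, which was low at 7.0 (7.27 to 7.29).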

How the results depend on the processing

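No member was called in any of the fits run, and the lowest adjusted p of a member was 0.21 with other settings and 0.27 with an array left out. Over all probe sets limma called 13, against 2 among the 1371 with a mean of at least 6, 23 with a replicate block and 13 to 16 with an array left out. In the pathway and cell type lists the count of 0 became 1 with a replicate block (Fosl1, difference -1.13, adjusted p = 0.0415) and ran from 0 to 1 with an array left out (Fos at 0.90, adjusted p = 0.0358, without ethanol 2, and Fosl1 at -1.36, adjusted p = 0.0485, without ethanol 3). The median member difference of 0.24 was -0.11 with array weights, 0.05 with a replicate block and -0.08 to 0.82 with an array left out, highest without control 4. Of 118 member values under other settings 109 kept their sign. The 9 that turned were, with array weights, Il1a at -0.29 (D00403_at) and -0.19 (D00403_g_at), Il1b at -0.35 (E01884cds_s_at), -0.17 (M98820_at) and -0.079 (M98820_g_at) and Ccl3 at -0.14, and, with a replicate block, Il1a at -0.081 (D00403_at) and -0.0047 (E05489cds_s_at) and Il1b at -0.088 (E01884cds_s_at). The cause was not tested, except that the block takes control 1, which has no partner, out of the contrast. Of 112 values with an array left out 85 kept their sign. Those of the probe sets that turned ran from -0.26 to 0.67 (D00403_at), -0.18 to 0.71 (D00403_g_at) and -0.1 to 0.82 (E05489cds_s_at) for Il1a, from -0.3 to 0.77 (E01884cds_s_at), -0.089 to 0.97 (M98820_at) and -0.09 to 0.91 (M98820_g_at) for Il1b, from -0.7 to 0.23 (X17053cds_s_at) and -0.74 to 0.29 (X17053mRNA_s_at) for Ccl2, from -0.018 to 0.99 for Ccl3, from -0.53 to 0.46 for Ccl4 and from -0.049 to 0.83 for Cxcl2. The median correlation of the 7 genes ran from 0.86, without control 4, to 0.96 with an array left out. Samples of the same replicate number correlated at 0.425, 0.0666 and 0.432 in their deviations from the group means, and not every array correlated best with its own number, so the numbers were not taken as pairs.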

Other observations

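The genes whose arrays ran most opposite to the member mean were Timp3, Nr0b2, Fgfr4, RT1-Bb and Hmgxb4, with r from -0.91 to -0.69 over the 7 arrays. Timp3, an inhibitor of metalloproteinases and of the enzyme that sheds tumour necrosis factor, read 5.73, 5.95 and 5.35 in the ethanol arrays, against 6.07, 5.90, 6.22 and 4.94 in the controls, so control 4 was the lowest array. RT1-Bb, a class II histocompatibility gene, read 4.87, 6.85 and 5.14 in the ethanol arrays, against 6.90, 6.40, 5.15 and 4.62 in the controls, but its other 4 probe sets gave r from -0.29 to 0.75 and did not share the direction.

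Outside the members, and among probe sets with exactly 1 gene symbol, taking the widest probe set of each gene, control 4 stood farthest above the next control for Olr1 (1.77), Ctsd (1.59), Ppt1 (1.52), Vim (1.43), Rap1b (1.39), Il18 (1.35), B2m (1.35), Psma2 (1.31), Lpl (1.25) and Lipa (1.23), in log2 units. A further 9 probe sets with several gene symbols or none, which are not named here, had gaps wider than that of Lipa. Lpl, the lipoprotein lipase gene, read 6.04, 4.53 and 5.22 in the ethanol arrays, against 3.95, 4.13, 4.11 and 5.38 in the controls, so ethanol 2 was above control 4. B2m, which encodes the light chain of class I histocompatibility molecules, read 7.02, 7.17 and 7.81 in the ethanol arrays, against 6.65, 5.64, 6.34 and 8.00 in the controls.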
